A study of Homo sapiens with 6 samples.

Results

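The luminal and basal epithelial identity genes KRT8, KRT18, CDH1, EPCAM, KRT5 and TP63 were examined for H3K4me2, the dimethylated form of lysine 4 of histone H3, in LNCaP cells. Members were the peak records that overlapped the gene bodies widened by 5 kb on each side, in hg19 coordinates. The luminal intervals were chr12:53290971-53346685 (KRT8 and KRT18, adjacent genes taken as 1 interval), chr16:68771195-68869444 (CDH1) and chr2:47596287-47614167 (EPCAM), and the basal intervals were chr12:52908359-52914471 (KRT5) and chr3:189349216-189615068 (TP63). They held 30 of the 99997 records in the vehicle list, 39 of 128134 in the GSK 4 h list and 41 of 127189 in the GSK 24 h list, or 110 of 355320 in all. When records that overlapped between lists by at least 1 bp were joined, the 110 records formed 41 union regions of the 151839 in the series.

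Prostate glands are lined by luminal cells, which rest on a layer of basal cells. KRT8 and KRT18 are the keratin pair of simple and luminal epithelium and assemble with each other into filaments. CDH1 encodes E-cadherin, the adhesion protein of epithelial junctions, and EPCAM is an epithelial surface adhesion molecule. KRT5 is a keratin of basal cells, and TP63 encodes p63, the transcription factor that marks basal cells and that is made from an upstream and an internal promoter, the latter giving the shorter form typical of basal epithelium. H3K4me2 lies over active and primed promoters and enhancers, and LSD1 (KDM1A) is a demethylase that removes it.

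LNCaP is an androgen-responsive prostate cancer (PCa) line of luminal character. Cells were kept for 3 days in medium with 5% charcoal-stripped serum (CSS), which is depleted of steroid hormones, before treatment. The 6 samples formed 3 groups of 2 replicates: vehicle without GSK2879552, and the LSD1 inhibitor GSK2879552 for 4 h (GSK 4 h) or 24 h (GSK 24 h). In the treatment label both GSK groups also carry the androgen DHT, while the treatment protocol names GSK2879552 alone, so an inhibitor effect and an androgen effect cannot be told apart. All samples come from 1 cell line, and the labels give no time for the vehicle group. The authors combined both replicates of a group into 1 peak list, so no value here has a replicate error and no difference between lists could be tested between conditions. The intervals given are 95% intervals for counting error alone.

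At each record the number of fragments over the summit was recovered from the deposited fold and p-value. The height of a summit is this number over the list's genome-wide background, which was 2.08 fragments for vehicle, 1.88 for GSK 4 h and 1.97 for GSK 24 h. Depth was 9.43, 10.1 and 8.98 tags per kb of effective genome, and the median height over all records was 11.0, 11.2 and 10.7. Height does not use the local surroundings, whereas the deposited fold compares a summit with a local background that can span 10 kb. In bulk chromatin, a mark carried by fewer cells and a weaker mark in every cell cannot be told apart.

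The luminal loci carried H3K4me2 densely and the basal loci thinly. Records covered 7.09% of the luminal intervals in vehicle, 7.96% in GSK 4 h and 7.83% in GSK 24 h, against 0.725%, 1.24% and 1.64% of the basal intervals. Over the whole genome the lists covered 1.99%, 2.38% and 2.50%, so that the luminal intervals lay above and the basal intervals below the genome in each list. Per 100 kb the luminal intervals held 12.4, 14.4 and 14.9 records in vehicle, GSK 4 h and GSK 24 h, and the basal intervals 1.71, 3.43 and 3.77. Median height was 25.4, 22.8 and 21.9 at the luminal loci and 8.16, 8.50 and 6.61 at the basal loci. All basal records were in TP63. The gene lists of other luminal and basal markers were not analysed, as no gene positions in the build of the files were at hand.

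**Figure D1:**
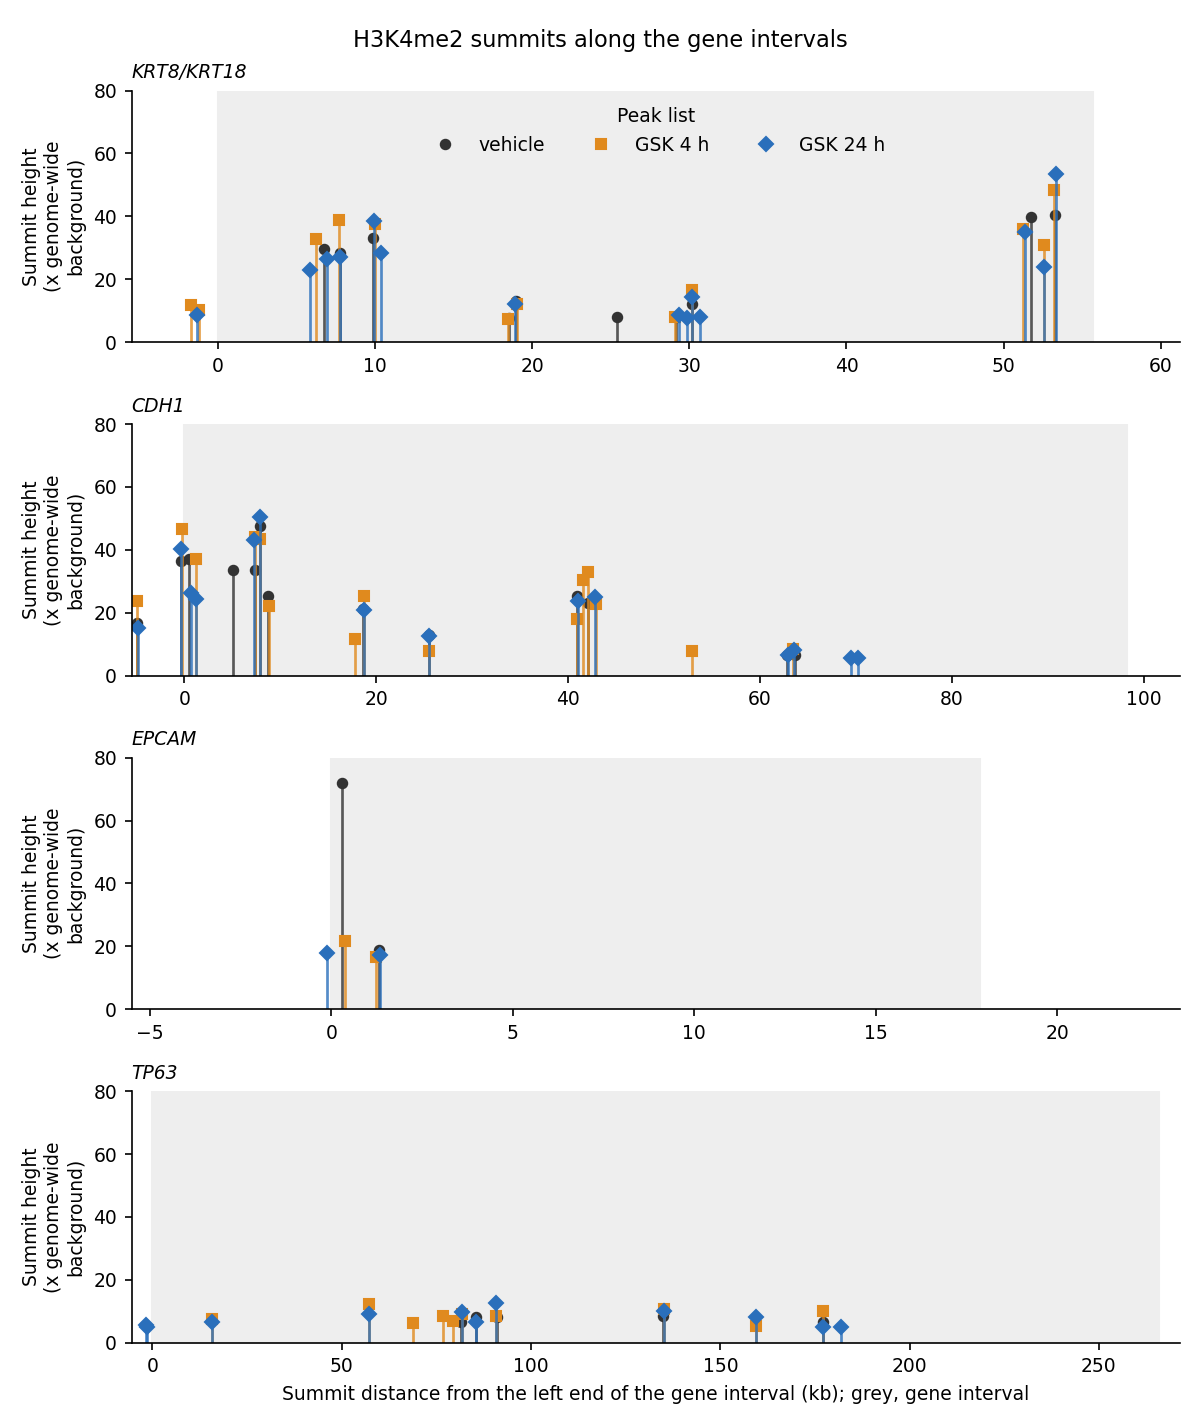
Height of each H3K4me2 summit (times the genome-wide background of its list) against its distance in kb from the left end of the gene interval, shaded grey, for the vehicle, GSK 4 h and GSK 24 h lists. KRT8/KRT18 and CDH1 summits reach 40.3 to 53.4, the EPCAM start stands at 72.0 in vehicle, 21.8 in GSK 4 h and 17.8 in GSK 24 h, TP63 stays at 12.7 or lower, and KRT5, which has no record, is not drawn.

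KRT5 had no H3K4me2 record in any of the 3 lists. The nearest record to the left of the gene lay 59.5 kb away in vehicle, 52.6 kb in GSK 4 h and 12.9 kb in GSK 24 h, and the nearest to the right, beyond the KRT5 start, 18.1, 18.2 and 18.1 kb. An empty interval of this length was common: of 186806 consecutive windows as long as the widened interval (16.113 kb), 52.3% held no record in any list. Windows in assembly gaps, where no record can lie, were not left out, so this share may be too high for gene loci. The weakest summits that the caller listed over the genome-wide background had 8 fragments in vehicle and 7 in each GSK list, so KRT5 had no summit listed above that level, and a weaker mark was not detectable at this depth.

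The promoter bases of KRT5 and TP63 are shown because no list had a record over the KRT5 start or the upstream TP63 start. They are RefSeq sequences of GRCh38.p14, the 250 bases before the start, read in the direction of the gene (KRT5 on the minus strand, TP63 on the plus strand). Whether the TP63 bases precede its upstream or its internal start was not given. Capitals mark the E-box letters CANNTG, a motif that reads the same on both strands and that many epithelial regulators bind.
KRT5: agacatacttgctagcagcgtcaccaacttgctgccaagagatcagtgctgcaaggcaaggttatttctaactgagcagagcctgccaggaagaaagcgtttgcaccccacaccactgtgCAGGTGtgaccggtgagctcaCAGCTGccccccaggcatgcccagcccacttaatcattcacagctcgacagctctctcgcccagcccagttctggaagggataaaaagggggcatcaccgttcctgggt
TP63: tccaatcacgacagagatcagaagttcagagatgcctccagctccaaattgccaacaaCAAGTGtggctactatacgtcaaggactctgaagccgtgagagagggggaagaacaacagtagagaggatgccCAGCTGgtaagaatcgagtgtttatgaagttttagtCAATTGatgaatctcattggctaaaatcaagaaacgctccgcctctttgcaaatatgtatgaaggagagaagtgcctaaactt
KRT5 held 2 matches, CAGGTG 130 bases and CAGCTG 109 bases before the start. TP63 held 3, CAAGTG at 192, CAGCTG at 119 and CAATTG at 83 bases before the start. Of the 35116 promoters in the table, 61.8% had at least 1 E-box match, and 17.5% held CACCTG or its reverse complement CAGGTG, as KRT5 did. Both basal promoters had 6 CpG dinucleotides against a table median of 11, and 41.1% of promoters had as few or fewer. KRT8 was the only luminal gene matched in the table, with 1 CpG and 2 E-box matches, and CDH1, EPCAM and KRT18 were not matched. The hg19 records were not placed on these GRCh38.p14 sequences.

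At TP63 the vehicle list held 5 records, GSK 4 h 10 and GSK 24 h 11, most of them below the median height of their list. The 5 vehicle summits lay 81.6, 85.6, 91.1, 135 and 177 kb inside the gene, with 14, 17, 17, 18 and 14 fragments. Their heights of 6.72 to 8.64 were below the vehicle median of 11.0. The tallest TP63 summit was 12.2 in GSK 4 h and 12.7 in GSK 24 h, above the medians of 11.2 and 10.7, and was the only one above the median in each list. None of the vehicle records, 3 in GSK 4 h and 3 in GSK 24 h reached a -log10 q-value of 10, beside 45.5%, 44.4% and 41.5% of all records in the vehicle, GSK 4 h and GSK 24 h lists. The upstream start of TP63 had no vehicle record within 34.9 kb to its left or 81.2 kb to its right, and where the internal promoter lies was not given by the intervals.

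Of the 14 TP63 union regions, 9 (64.3%) were in a GSK list and not in vehicle, against 39.8% of all union regions. Only 4 (28.6%) were in all 3 lists, against 47.9% in the series. None was in vehicle alone. The GSK lists were longer than the vehicle list across the genome, and with the lists shortened to the same number of top records by -log10 p-value the count of 9 was 5. The share over all union regions was not computed for the shortened lists, so whether TP63 still differed from the series there is not known. The series shares count regions of every height, whereas most TP63 records were below the median height of their list. Shares for regions of like height were not computed, so whether TP63 differed from other weak regions is not known either.

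Of these 9 regions 3 were in both GSK lists. The most prominent, chr3:189406189-189406826, lay 57.2 kb inside TP63, with 23 fragments (height 12.2) in GSK 4 h and 18 (height 9.16) in GSK 24 h. Its fold of 8.33 in GSK 4 h ranked at the 90.4th percentile of that list and its fold of 6.41 in GSK 24 h at the 79.1st, the highest ranks of any GSK region of TP63 without a vehicle record. The region chr3:189364700-189365113 had 14 and 13 fragments, and chr3:189508394-189508719 had 10 and 16. Only the region at 57.2 kb in GSK 4 h stood above the median height of its list, and the vehicle list shows no summit at any of the 3 although it lists summits down to a height of 3.84.

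The other 6 regions were in 1 GSK list each. Those of GSK 4 h clustered between 68.8 and 79.3 kb inside the gene, at chr3:189417901-189418086, chr3:189425953-189426156 and chr3:189428442-189428686, with 12, 16 and 13 fragments. Those of GSK 24 h were chr3:189347356-189347591 and chr3:189347801-189348019, with summits at -1734 and -1350 bp from the upstream start and 11 and 10 fragments, and chr3:189530837-189531361 with 10 fragments. The nearest TP63 record to the upstream start was therefore 1.20 kb away in GSK 24 h, against 15.6 kb in GSK 4 h. One further region, chr3:189434569-189434917, was in vehicle (17 fragments) and GSK 24 h (13) and not in GSK 4 h. Regions in vehicle and 1 GSK list made up 6.81% of all union regions.

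Heights were compared where a TP63 record in vehicle overlapped exactly 1 record of a GSK list and the reverse. The median log2 ratio was 0.36 over 4 matched records in GSK 4 h and 0.24 over 5 in GSK 24 h, beside 0.24 and 0.16 over all matched records of the series. At 1.5-fold, 1 TP63 record was higher in GSK 4 h, the one at 177 kb with 14 and 19 fragments, and 24.2% of the 67409 matched records of the series were higher. In GSK 24 h 1 was higher, at 91.1 kb with 17 and 25 fragments (log2 ratio 0.64, interval -0.31 to 1.62), beside 15.8% of 68814. The record at 81.6 kb had 14, 17 and 19 fragments in vehicle, GSK 4 h and GSK 24 h, and that at 177 kb was lower again at 24 h, with 10. The interval of every TP63 ratio included 0.

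**Figure D2:**
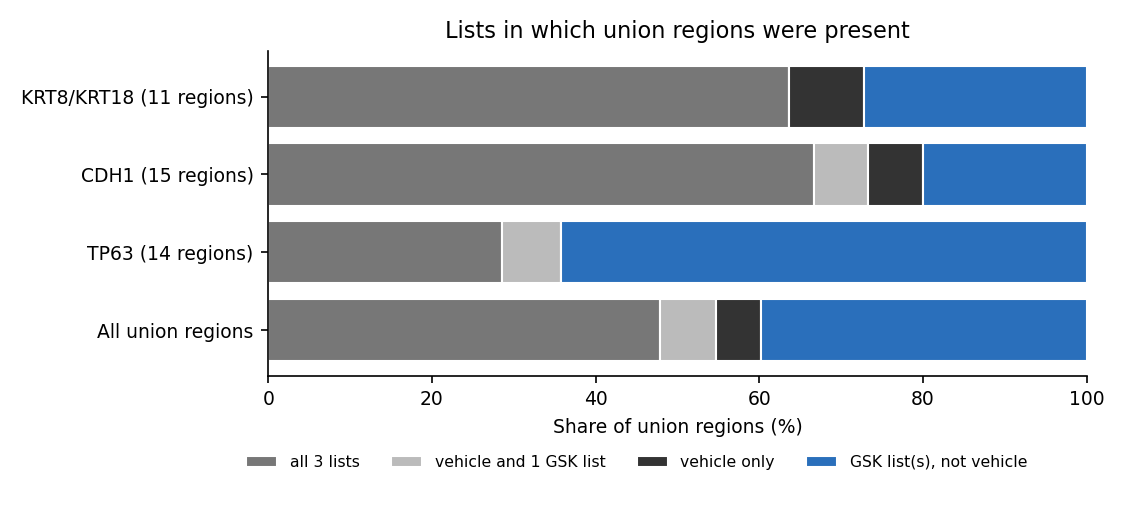
Share of union regions (percent) by the lists in which they were present, for the KRT8/KRT18, CDH1 and TP63 intervals and for all union regions; EPCAM, with 1 region in all 3 lists, and KRT5, with none, are not drawn. TP63 had 64.3% of its 14 regions in GSK lists without vehicle, against 39.8% over the series, which counts regions of every height.

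EPCAM was the luminal gene with an H3K4me2 summit that differed between lists beyond counting error, among summits recorded in both lists compared. Its start lay inside a record in all 3 lists. Each list held 2 records at this locus, the other one peaking further inside the gene, and none elsewhere in the gene or its flanks. In vehicle the record chr2:47596008-47597032 peaked 293 bp inside the gene with 150 fragments, a height of 72.0 (60.9 to 84.5) and a fold of 14.2, which ranked at the 98.1st percentile of its list. In GSK 4 h the record at the start, chr2:47595980-47597285, peaked at 366 bp with 41 fragments and a height of 21.8 (15.6 to 29.6). In GSK 24 h the record chr2:47595885-47596365 peaked at -107 bp with 35 fragments and a height of 17.8 (12.4 to 24.8). The vehicle interval lay above both GSK intervals, which overlapped each other.

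The log2 ratio of the EPCAM start to vehicle was -1.72 (-2.26 to -1.22) in GSK 4 h and -2.02 (-2.59 to -1.48) in GSK 24 h, the latter taken from the tallest record of the union region because the GSK 24 h records did not match 1 to 1. A second record peaked 1.23 to 1.34 kb inside the gene in each list. It had 39 fragments in vehicle, 31 in GSK 4 h and 34 in GSK 24 h, and its heights of 18.7, 16.5 and 17.3 were close to each other. The tall summit at the start was thus lower in both GSK lists while the second summit differed little. The records were divided elsewhere in GSK 24 h. There the record at the start ended before the position of the vehicle summit, and the second record, chr2:47596580-47597808, began at that position. EPCAM coverage was 5.02% of the interval in vehicle, 6.23% in GSK 4 h and 6.13% in GSK 24 h, over both records together. The record at the start was 1025 bp long in vehicle, 1306 bp in GSK 4 h and 481 bp in GSK 24 h, where it did not span the same stretch.

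**Figure D3:**
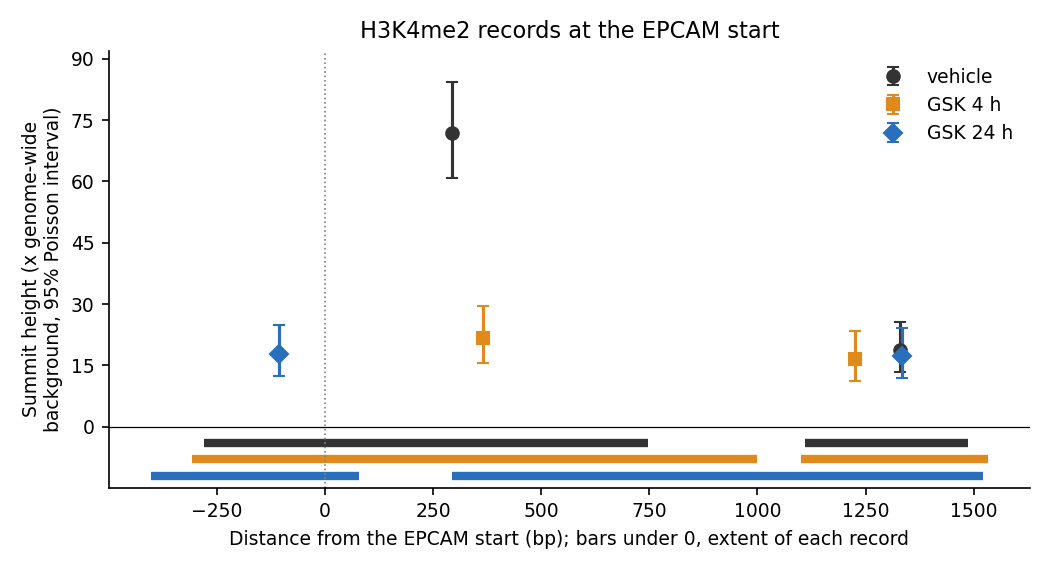
Height of each summit near the EPCAM start (times the genome-wide background; bars, 95% Poisson interval of counting error) against its distance in bp from the start, with the extent of each record drawn as a bar under 0. The vehicle summit at 293 bp stands at 72.0, the GSK summits nearest the start at 21.8 and 17.8, and the second summits at 16.5 to 18.7.

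A lower summit in both GSK lists was shared by most very tall vehicle regions of the series. Of union regions with a vehicle height of at least 64 and a record in the GSK list, 87.5% of 6902 were lower past 1.5-fold in GSK 4 h and 93.9% of 6784 in GSK 24 h, with median log2 ratios of -1.21 and -1.71. EPCAM was the only member of this height. These regions were chosen by their height in vehicle, and the part of that choice in their ratios to vehicle was not tested. With a vehicle height from 20 to 64, where the tallest CDH1 and KRT8/KRT18 regions lie, the median was 0.15 in GSK 4 h and 0.00 in GSK 24 h.

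**Figure D4:**
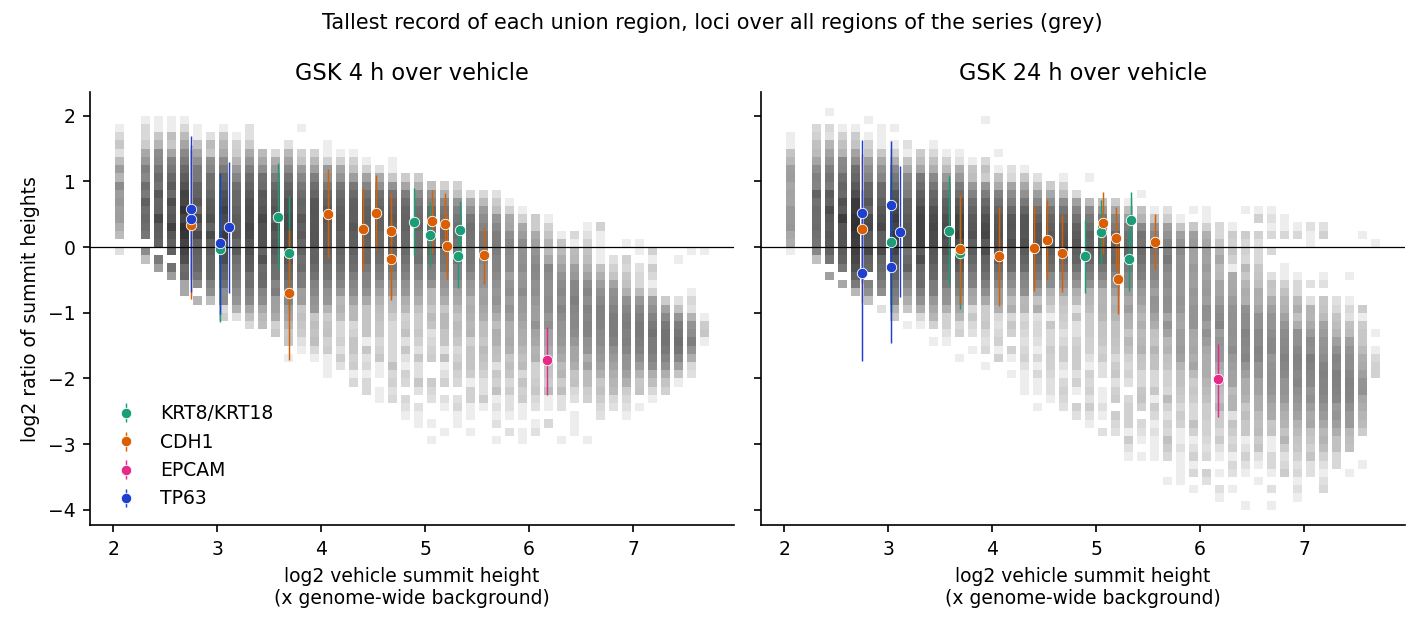
Log2 ratio of the tallest summit height in GSK 4 h (left) or GSK 24 h (right) over vehicle against log2 vehicle height, for each union region of the gene intervals (colours, with 95% intervals of counting error), over all union regions of the series (grey shades, darker where more regions lie). EPCAM lies at -1.72 and -2.02 among the tall regions that were lower in both GSK lists, and the intervals of the other loci include 0.

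CDH1 carried 13 records in vehicle, 15 in GSK 4 h and 14 in GSK 24 h, and its tall summits differed little between lists. The tallest in vehicle, at 7.91 kb inside the gene (chr16:68778893-68779425), had 99 fragments, and 82 and 99 in GSK 4 h and GSK 24 h, which gave heights of 47.5, 43.6 and 50.4. Its neighbour at 7.32 kb had 70, 83 and 85 fragments. The record at 0.439 kb had 77, 70 and 52, the lowest 24 h ratio of the locus at a log2 of -0.48 (-1.02 to 0.04). The record before the start, peaking at -372 bp in vehicle, had 76, 88 and 79. None of these ratios lay beyond counting error.

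The CDH1 start itself lay between records in every list. The gap around it was 147 bp wide in vehicle, 387 bp in GSK 4 h and 544 bp in GSK 24 h. It opened mostly on the gene side: the next record inside the gene began 58, 277 and 405 bp from the start, and the last record before it ended 90, 111 and 140 bp away. Whether a dip at the start divides the signal, or the caller split 1 broad domain, cannot be told apart from record borders.

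Further inside CDH1, records near 18.6, 25.4, 40.9, 42.1 and 63.6 kb were present in all 3 lists. The record at 25.4 kb had 27 fragments in vehicle, 15 in GSK 4 h and 25 in GSK 24 h (log2 ratios -0.70, interval -1.72 to 0.26, and -0.03), and that at 63.6 kb had 14 in vehicle and 16 in GSK 24 h. Of the 15 CDH1 union regions 10 were shared by all lists. The 5 others were chr16:68776214-68776434, in vehicle only and 5.08 kb inside the gene with 70 fragments, chr16:68779740-68780141, in vehicle and GSK 4 h with 53 and 42, chr16:68824047-68824259, in GSK 4 h only with 15, and chr16:68840690-68840908 and chr16:68841249-68841467, in GSK 24 h only with 11 each. The vehicle-only region had a fold of only 2.19, since its local background was 15.1 times the genome-wide level, the highest at any member.

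KRT8 and KRT18 are read away from each other, KRT8 towards the left end of the shared interval and KRT18 towards the right end. The interval held 10 records in vehicle, 12 in GSK 4 h and 14 in GSK 24 h, in which the tall summits formed 2 clusters, one in the last 5 kb at the right and one 5.86 to 10.3 kb from the left end. The tallest vehicle record, chr12:53343806-53344454, peaked 2.42 kb from the right end with 84 fragments, and its matches had 91 in GSK 4 h and 105 in GSK 24 h. The heights were 40.3, 48.4 and 53.4, with log2 ratios of 0.26 (-0.18 to 0.71) and 0.41 (-0.02 to 0.84). The next tallest vehicle record, chr12:53341738-53342916, had 83, 68 and 69 fragments in the 3 lists, and the record 30.2 kb from the left end had 25, 31 and 28. The intervals of all these ratios included 0.

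Between the 2 tallest vehicle records lay a gap of 889 bp. Both GSK lists had a record there, in the union region chr12:53342963-53343641, with 58 fragments in GSK 4 h and 47 in GSK 24 h. The record was 675 bp long in GSK 4 h, where the records of the right cluster were more nearly continuous than in vehicle. In GSK 24 h it was 257 bp long, and most of the gap stayed without a record. The second region in both GSK lists and not in vehicle was chr12:53289539-53290049, with 19 and 17 fragments, outside the left end and beside the GSK 4 h region chr12:53289141-53289535 with 22. The region chr12:53316219-53316524 was in vehicle only, with 17 fragments. In the left cluster the union region chr12:53296646-53298826 held 2 records in vehicle, 2 in GSK 4 h and 3 in GSK 24 h, and its tallest summit had 62, 73 and 53 fragments. The other region of that cluster had 69, 71 and 76.

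Over the luminal loci, 18 of 27 union regions (66.7%) were in all 3 lists and 6 (22.2%) in a GSK list and not in vehicle, beside the 47.9% and 39.8% of the series. There were 2 in vehicle only, beside 5.45% of all union regions. The series shares were not computed for regions as tall as the luminal ones. Among 16 luminal records matched 1 to 1 in GSK 4 h, the median log2 ratio was -0.04, with 2 lower past 1.5-fold (the EPCAM start and CDH1 at 25.4 kb) beside 11.1% of the series, and 0 higher beside 24.2%. Among 15 in GSK 24 h the median was 0.08, with 0 lower beside 10.1% of the series and 0 higher beside 15.8%. The EPCAM start was the only matched member whose interval excluded 0, and it was not matched 1 to 1 in GSK 24 h.

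The order of luminal and basal records depended on the scale. By deposited fold the median luminal record stood at the 25.1st, 16.9th and 24.5th percentile of the vehicle, GSK 4 h and GSK 24 h lists, below the basal 52.8th, 55.5th and 38.5th. By -log10 p-value the luminal median stood at 59.0, 61.1 and 51.8 and the basal at 41.8, 41.8 and 32.5, and by height at 80.6, 77.0 and 79.2 against 33.6, 35.3 and 21.5. The local background moved with this difference: its median was 5.46, 6.27 and 5.29 times the genome-wide level at luminal records whereas most TP63 records stood on the genome-wide level itself, with values up to 1.88. Tall CDH1 and KRT8/KRT18 summits thus had low folds in signal-rich surroundings, and low TP63 summits had middling folds in empty surroundings.

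**Figure D5:**
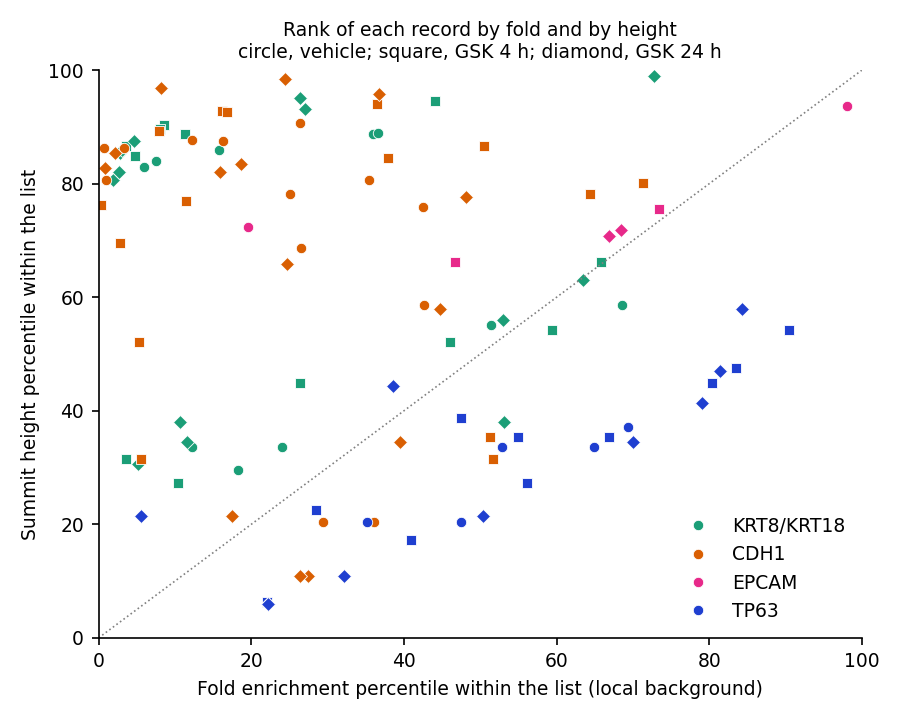
Percentile of each record within its list by height (vertical) and by deposited fold (horizontal), coloured by locus and shaped by list; the dotted line marks equal ranks. CDH1 and KRT8/KRT18 records lie mostly above the line, TP63 records mostly below it, and the vehicle record at the EPCAM start near its top, at the 98.1st percentile by fold.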

How the data were processed

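H3K4me2 ChIP-seq was analysed in LNCaP cells, with 2 replicates in each of 3 groups. Per the submitters' processing notes, the authors used BWA 0.7.2-r351, SAMtools 0.1.18, MACS2 2.0.10.20131216 and hg19 (GRCh37), and 1 peak list was made from both replicates of a group. Settings and an input control were not given in the sources used here. The deposited values of a record are its fold (ratio of the summit over local background), the p-value and q-value of the summit on a -log10 scale, and a score of about 10 times the latter. Records outside chromosomes 1 to 22, X and Y, 1.06% to 1.27% of each list, were left out.

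Fragments over each summit were recovered, within 0.001 on the -log10 p scale, as the whole number that gave the deposited fold and Poisson p-value, for all but 2 records of the vehicle list and for every record of both GSK lists. Fragment length was taken as the shortest record, 221, 186 and 219 bp for vehicle, GSK 4 h and GSK 24 h. Intervals are exact Poisson (heights) and Clopper-Pearson (ratios), and cover counting error only. The steps were run on data simulated from the recovered vehicle values, with record borders unchanged. Such a run checks the code, and not the assumed Poisson model or the matching of shifted or split records. Differences past 1.5-fold were counted, with no test. Python 3.11.15, pandas 2.3.3 and scipy 1.17.1 were used.

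All 6 genes are named. The regions named in each locus are the tallest in vehicle, the one nearest the start, those that the lists do not all share and the 3 matched ones with the largest GSK 24 h ratio. Members, lists and rules were chosen with earlier results of these data known. Alternatives were other flanks, -log10 q-value thresholds, equal list lengths, merging, overlap, centring, deposited fold and ranking. Ranking by height and the split by vehicle height were chosen after seeing the data.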

Additional observations from a re-analysis of the deposited data

How the results depend on the processing

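Of the recomputed values that answer a comparison, 72 stayed within the range taken as unchanged (for counts, within 1.5 times), 28 moved and 6 reversed. No paired analysis was possible because the replicates of a group share 1 deposited list, and for the same reason none could be left out. The luminal minus basal median percentile was -27.7, -38.6 and -14.0 by deposited fold in vehicle, GSK 4 h and GSK 24 h, and reversed to 17.2, 19.3 and 19.2 by -log10 p-value and to 47.0, 41.6 and 57.7 by height. At a -log10 q-value of at least 10 the luminal loci held 17, 19 and 12 records in vehicle, GSK 4 h and GSK 24 h. These were out of 25, 29 and 30, and in the whole lists 45.5%, 44.4% and 41.5% of records reached it. The basal loci held 0, 3 and 3. Luminal union regions in all 3 lists then numbered 11 and basal ones 0, and those in GSK lists without vehicle 1 and 4. Basal GSK 24 h records were 6 both at a -log10 q-value of at least 5 and with equal list lengths, and basal GSK-only regions 5 under either. Shares of all union regions were not computed under these settings. Merging records within 1 kb gave 15 luminal records in each list, and an overlap of 50% of the shorter record gave 11 luminal GSK-only regions. Centred on the series median, the luminal GSK 4 h median log2 ratio of -0.04 was -0.28, while with the tallest record of each region it changed sign to 0.25, so its direction depends on the setting. The luminal GSK 24 h median of 0.08 was -0.08 both when centred and with the deposited fold, and the basal one of 0.24 was -0.02 with the deposited fold. These sign changes are among the 72, since the values were small. Centring also gave the EPCAM start -1.96 (-1.18 with the deposited fold) and 1 lower luminal GSK 24 h record, as did the tallest record of each region. Past 2-fold, 1 luminal GSK 4 h record was lower. The 1 basal record higher at each time was 0 past 2-fold, when centred and with the deposited fold, by which 1 basal GSK 24 h record was lower. Fewer records in a list by construction lower the counts under stricter thresholds; for the other changes the cause was not tested. TP63 summits had 10 to 25 fragments, and none of the observed ratios to vehicle there lay beyond counting error.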
